A study of Rattus norvegicus with 12 samples.

Results

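miR-139-5p and miR-224-5p (rno-miR-139-5p and rno-miR-224-5p in the table) are the 2 mature microRNAs described here, out of 752 named in a table of small RNA sequencing of rat serum. They were chosen from their own measured values, as microRNAs higher than control after each of 3 drug treatments, so their differences from control are given below as a description with no test. The rats were 7-week-old male Sprague-Dawley animals given a single oral dose. The 4 groups were caffeine (CAF, 180 mg/kg), dextromethorphan hydrobromide monohydrate (DEX, 200 mg/kg), caffeine followed 1 h later by dextromethorphan at the same doses (CAF+DEX), and vehicle, sterile distilled water (Control). Blood was drawn 1 h after dextromethorphan in DEX and CAF+DEX. No time from dose to blood is recorded here for CAF and Control. The design text gives 5 rats per group, of which 3 libraries per group, 12 in all, were analysed here. Caffeine blocks adenosine receptors and inhibits phosphodiesterases, and dextromethorphan is a cough suppressant that blocks NMDA receptors. Nothing in the labels says that each library is a separate animal, so the p-values below measure the spread between these libraries.

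A microRNA gene is transcribed as a hairpin, which is cut into a 5p and a 3p strand. The strand that is loaded into Argonaute pairs through its seed, bases 2 to 8, with target messenger RNAs and represses them. miR-139 is best known as a microRNA that is lowered in many human tumours, where growth factor receptor and cytoskeletal genes are among its targets. miR-224 is best known for its high level in human liver cancer and, in mouse granulosa cells, for acting on TGF-beta signalling through Smad4. Serum pools microRNAs released by many tissues, so more releasing cells and more release per cell cannot be told apart.

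Each member had 1 locus in the table. In the files' coordinates, for which the submitters' processing notes give build rn6, miR-139-5p lies at chr1:166589551-166589572 on the plus strand and miR-139-3p at chr1:166589587-166589608. miR-224-5p lies at chrX:152223807-152223828 on the minus strand and miR-224-3p at chrX:152223760-152223781. In RefSeq's GRCr8 annotation the miR-139 hairpin falls within the span of Pde2a, which encodes a cyclic nucleotide phosphodiesterase. The miR-224 hairpin falls within the span of Gabre, which encodes a GABA-A receptor subunit. No other microRNA of the table lies within 50 kb of either. The mature strands are shown because the values below are counts of these molecules; sequences are from RefSeq (GRCr8), 5′ to 3′, with the seed in capitals.
miR-139-5p: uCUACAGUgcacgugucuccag
miR-139-3p: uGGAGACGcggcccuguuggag
miR-224-5p: cAAGUCACuagugguuccguuu
miR-224-3p: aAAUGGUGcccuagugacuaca
None of these 4 seeds is shared with another mature rat microRNA of the RefSeq table, so neither member has a seed family there. Both members are 22 nucleotides long. In the hairpins the capitals mark the 5p strand on the left and the 3p strand on the right, which shows which strands of each precursor were and were not seen in serum.
Mir139: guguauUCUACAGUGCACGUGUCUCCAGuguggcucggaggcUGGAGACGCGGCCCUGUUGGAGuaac
Mir224: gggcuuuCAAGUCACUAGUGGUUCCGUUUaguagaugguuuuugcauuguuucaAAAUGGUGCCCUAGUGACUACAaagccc

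The deposited values are FPKM made by the authors, relative to all reads assigned to the listed microRNAs of a library. Reads recovered from these values totalled 1504963 to 1842796 in CAF libraries, 403913 to 895792 in DEX, 758290 to 1160717 in CAF+DEX and 1304868 to 2625593 in Control. The groups thus differed in depth, with every DEX and CAF+DEX library below every Control library. Libraries are named as in the table's columns. Listed platelet and liver microRNAs were all present, as were 6 of 7 listed red-cell microRNAs. None of those present was at 0 in all 12 libraries.

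miR-139-5p was about 3-fold higher than control in each drug group, at a low level that rested on 15 to 97 reads per library. Its level was 1979, 1603 and 2930 FPKM in the CAF libraries CAF3, CAF4 and CAF5. It was 1877, 1537 and 3264 FPKM in DEX1, DEX2 and DEX3. After both drugs it was 3236 FPKM in CAFDEX2, 3117 in CAFDEX3 and 901 in CAFDEX6, against 475, 658 and 906 FPKM in the Control libraries ctrl1, ctrl3 and ctrl5. All CAF and DEX libraries lay above all Control libraries, whereas CAFDEX6 lay just below ctrl5, so the CAF+DEX and Control groups overlapped. The exact Poisson 95% intervals of CAFDEX6 (23 reads, 571 to 1351 FPKM) and ctrl5 (26 reads, 592 to 1327 FPKM) covered much the same range. The widest relative interval was that of DEX2, whose 15 reads allow 860 to 2535 FPKM; these intervals cover counting error only, since reads are not independent molecules unless molecular indices were collapsed.

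miR-224-5p was also higher in each drug group, with a tighter spread. Its level was 9156, 7350 and 6524 FPKM in CAF3, CAF4 and CAF5. It was 4668, 8608 and 6640 FPKM in DEX1, DEX2 and DEX3. In CAFDEX2, CAFDEX3 and CAFDEX6 it was 4372, 6953 and 5522 FPKM, against 2571, 2112 and 3553 FPKM in ctrl1, ctrl3 and ctrl5. Each of the 9 drug libraries lay above each Control library, the closest being CAFDEX2 and ctrl5. Of the 366 microRNAs tested, 23 (6.28%) had all drug libraries above all Control libraries, and miR-224-5p is 1 of them while miR-139-5p is not.

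**Figure D1:**
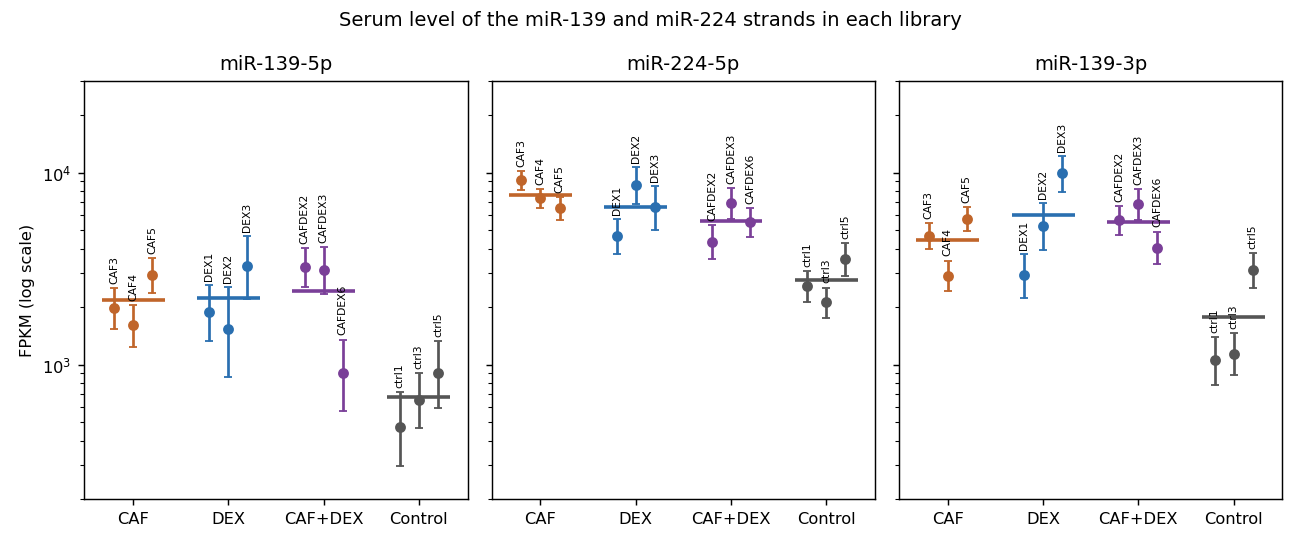
FPKM (log axis) of miR-139-5p, miR-224-5p and miR-139-3p in each of the 12 libraries, by group; points are libraries, bars are exact Poisson 95% intervals from the recovered reads and horizontal lines are group means. For miR-139-5p CAFDEX6 (901 FPKM) sits among the Control libraries, while for miR-224-5p the lowest drug library (4372 FPKM) sits above the highest Control library (3553 FPKM).

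In group means miR-139-5p was at 2171 ± 684 FPKM in CAF (SD, n = 3), 2226 ± 914 in DEX, 2418 ± 1315 in CAF+DEX and 680 ± 216 in Control. The spread within CAF+DEX, a 3.59-fold range between its libraries, was the widest of the 4 groups. On the log2(FPKM + 40) scale, which understates changes of low values, its difference from Control was 1.62 ± 0.47 in CAF (SE from limma over all 12 libraries), 1.63 ± 0.47 in DEX and 1.61 ± 0.47 in CAF+DEX. Without CAFDEX6 the last of these was 2.20. miR-224-5p was at 7677 ± 1346 FPKM in CAF (SD, n = 3), 6639 ± 1970 in DEX, 5616 ± 1293 in CAF+DEX and 2745 ± 736 in Control. Its log2 difference from Control was 1.49 ± 0.32 in CAF, 1.25 ± 0.32 in DEX and 1.03 ± 0.32 in CAF+DEX (SE). All 3 differences of a member use the same Control libraries.

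Recovered reads show what these levels rest on. miR-139-5p had 67, 65 and 97 reads in CAF libraries, 37, 15 and 29 in DEX and 74, 52 and 23 in CAF+DEX, against 22, 38 and 26 in Control. DEX1 and DEX3 were thus in the range of Control and DEX2 below it, from libraries with fewer reads in all. miR-224-5p had 310, 298 and 216 reads in CAF, 92, 84 and 59 in DEX and 100, 116 and 141 in CAF+DEX, against 119, 122 and 102 in Control. Its reads were more numerous than in Control in every CAF library and fewer in every DEX library, while its FPKM was higher in both groups. As a share, miR-224-5p took 103 to 189 of every 1e6 reads in DEX and 46.5 to 78.2 in Control. Whether depth has a part in the differences was not tested.

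**Figure D2:**
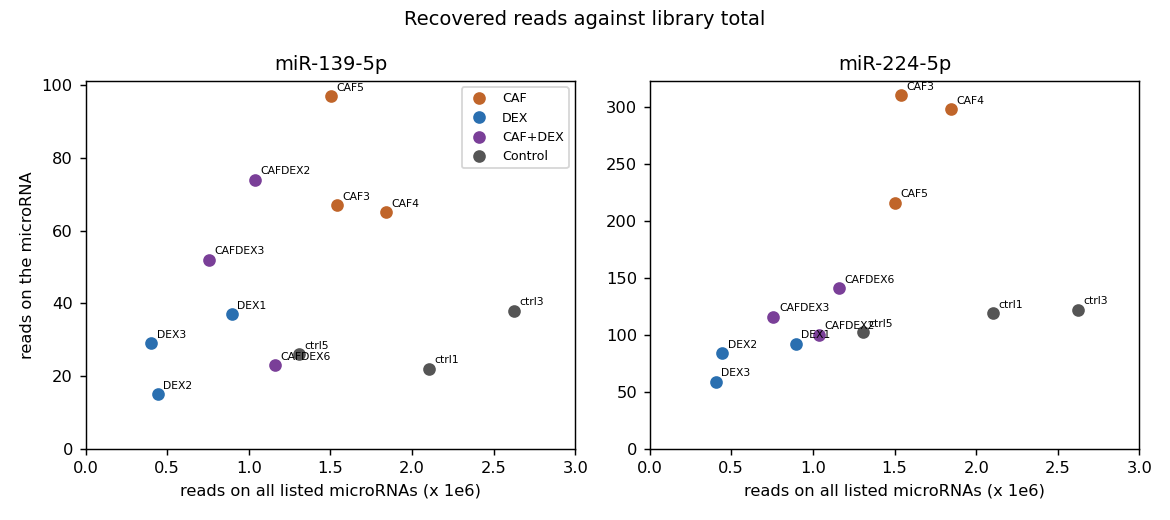
Reads recovered for miR-139-5p (left) and miR-224-5p (right) against the reads on all listed microRNAs (axis in units of 1e6 reads), 1 point per library, coloured by group. DEX libraries hold 15 to 37 reads of miR-139-5p, close to the 22 to 38 of Control, at 403913 to 895792 total reads against 1304868 or more in Control.

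The level scale is relative, and the tested microRNAs as a whole shifted on it. The median log2 fold change of all 366 was 0.19 in CAF against Control, 0.47 in DEX and 0.24 in CAF+DEX. Relative to these medians miR-139-5p was higher by 1.43 in CAF, 1.15 in DEX and 1.37 in CAF+DEX on the log2 scale. miR-224-5p was higher than the median by 1.30 in CAF, 0.78 in DEX and 0.79 in CAF+DEX. In CAF 17 microRNAs had a larger log2 fold change than miR-139-5p and 28 a larger one than miR-224-5p. In DEX these numbers were 24 and 46, and in CAF+DEX 19 and 57. By rank of level among the 366, where 1 is the most abundant, miR-139-5p held places 160 to 181 in CAF, 171 to 194.5 in DEX and 147.5 to 207.5 in CAF+DEX, and places 203 to 242 in Control. miR-224-5p held places 117 to 127 in CAF, 120 to 138 in DEX and 122 to 133 in CAF+DEX, and places 141 to 160 in Control. How many of the 366 had ranks apart from those of Control was not counted. The members were chosen from these same levels.

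**Figure D3:**
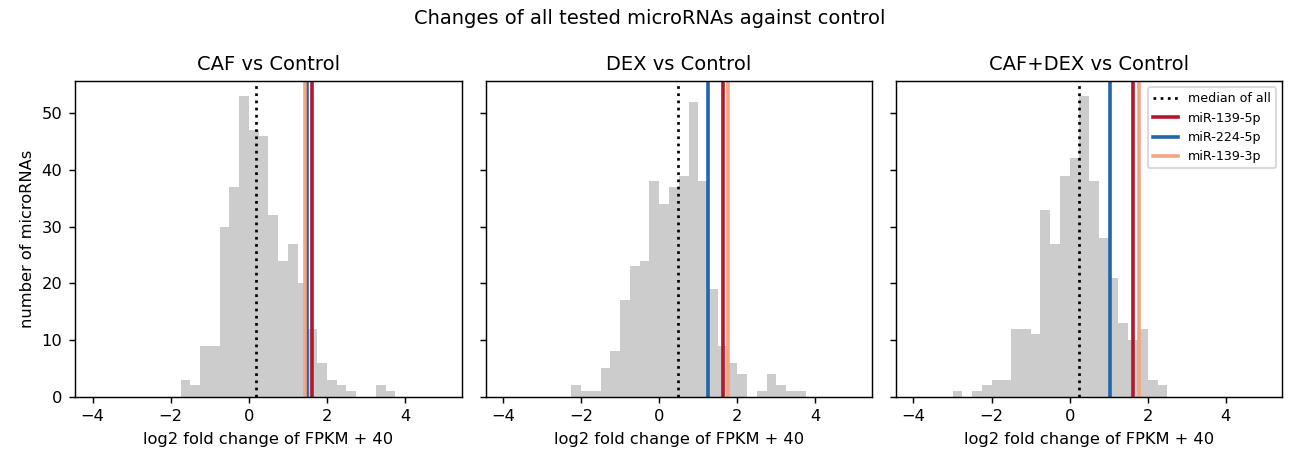
Histograms of the log2 fold change of FPKM + 40 of all 366 tested microRNAs in each drug group against Control, with the median (dotted) and the values of miR-139-5p, miR-224-5p and miR-139-3p as vertical lines. The 3 lines lie in the upper tail in each panel, and the median lies right of 0, at 0.19, 0.47 and 0.24.

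Being higher than Control in all 3 drug groups was common. By sign alone 177 of 366 microRNAs (48.4%) were, both members among them by the way they were chosen. The share with all 3 libraries above all 3 Control libraries was 26% in CAF, 26% in DEX and 18% in CAF+DEX. Of the 364 tested microRNAs other than the members, 4 (1.1%) were called higher by limma at a Benjamini-Hochberg adjusted p under 0.05 in each of the 3 comparisons. They were the hepatocyte microRNA miR-122-5p, miR-192-5p of liver, gut and kidney, the striated muscle microRNA miR-133a-3p and miR-378a-5p, whose gene lies within a gene for a coactivator of mitochondrial metabolism. Others were higher in all 3 drug groups without a call in each comparison. Examples are miR-187-3p, with log2 fold changes of 1.48 in CAF, 1.04 in DEX and 2.00 in CAF+DEX, and miR-27b-3p, with 0.99, 1.14 and 0.91. The comparisons share their Control libraries, so a call in all of them is not 3 separate observations.

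The drug groups were then compared with each other. The choice of members did not use these differences, but it did use the levels of all 3 drug groups against Control. Asking for a high level in each may favour microRNAs with like levels in the drug groups, so a lack of difference may follow in part from the choice. miR-139-5p did not differ detectably between any 2 of them. CAF+DEX against CAF gave a ratio of 0.996 (95% interval 0.495 to 2.00, 3 libraries a group, limma adjusted p = 0.997), with 2418 FPKM on average in CAF+DEX and 2171 in CAF. CAF+DEX against DEX gave 0.991 (0.493 to 1.99, limma adjusted p = 0.991), and DEX against CAF gave 1.005 (0.500 to 2.02, limma adjusted p = 0.997). These intervals still allow differences of about 2-fold either way. Without CAFDEX6 the log2 fold change of CAF+DEX against CAF was 0.59 and that against DEX 0.58, and neither passed (limma adjusted p = 0.880 and 0.530).

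miR-224-5p was lower after both drugs than after either alone in group means, and no difference passed. CAF+DEX against CAF gave a ratio of 0.727 (95% interval 0.456 to 1.16, 3 libraries a group, limma adjusted p = 0.893), with 5616 FPKM on average in CAF+DEX and 7677 in CAF. CAF+DEX against DEX gave 0.858 (0.538 to 1.37, limma adjusted p = 0.757). DEX against CAF gave 0.848 (0.532 to 1.35, limma adjusted p = 0.755). The values of CAF+DEX, DEX and CAF libraries overlapped in each pair. The order of miR-224-5p levels, highest in CAF, then DEX, then CAF+DEX, is therefore an order between groups that were not told apart. With 3 libraries a group a difference is not excluded, and the interval of CAF+DEX against CAF still allows a ratio as low as 0.456. As background to these 6 tests, limma called 13 of 366 microRNAs (3.55%) in CAF+DEX against DEX and 9 (2.46%) in DEX against CAF. In CAF+DEX against CAF limma called 0 (0%), with 22 at an unadjusted p under 0.05 and 0 called by voom on the recovered reads.

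If the effects of the drugs added up on the log2 scale, CAF+DEX would lie above either drug alone. The departure of CAF+DEX from that sum was -1.63 ± 0.67 for miR-139-5p and -1.71 ± 0.45 for miR-224-5p (SE), against a median of -0.39 over the 366. Choosing microRNAs that are high in each single-drug group favours a negative departure, so no test is given.

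The opposite strands were not used in choosing the members. miR-139-3p, cut from the same hairpin, was the more abundant strand in every library, at 1.55 to 4.52 times the FPKM of miR-139-5p. Among 102 hairpins with both strands tested, the 3p strand was higher in every library for 41, so this is not rare. miR-139-3p was at 4696, 2911 and 5754 FPKM in CAF3, CAF4 and CAF5 and at 2918, 5278 and 9903 FPKM in DEX1, DEX2 and DEX3. It was at 5662, 6864 and 4073 FPKM in CAFDEX2, CAFDEX3 and CAFDEX6, against 1058, 1143 and 3118 FPKM in ctrl1, ctrl3 and ctrl5. ctrl5 was thus above CAF4 and DEX1, and the CAF+DEX libraries alone all lay above Control.

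miR-139-3p rose in DEX and in CAF+DEX, where limma called 11.5% and 6.56% of the 366 higher, and did not pass in CAF, where the share was 6.83%. Its log2 fold change against Control was 1.75 ± 0.47 in DEX (SE, n = 3 per group, limma adjusted p = 0.0338) and 1.77 ± 0.47 in CAF+DEX (limma adjusted p = 0.0316). In CAF it was 1.43 ± 0.47 (limma adjusted p = 0.0648), and a difference between CAF and the other drug groups was not detectable (DEX against CAF 0.32 ± 0.47, limma adjusted p = 0.795; CAF+DEX against CAF 0.33 ± 0.47, limma adjusted p = 0.893). Because the strand comes from the same transcript and libraries as miR-139-5p, it is not independent support for it. Its p-values against Control are also not free of the choice of miR-139-5p, which was picked as higher than these same Control libraries. Of 24 alternatives 12 ended the DEX call and 7 the CAF+DEX call. The largest move came with a haemolysis index, log2 of miR-451-5p (made in red cells) over miR-23a-3p, as a covariate, which gave 0.75 in DEX (limma adjusted p = 0.900) and 0.96 in CAF+DEX (limma adjusted p = 0.706). The DEX call was lost with median-of-ratios scaling (log2 fold change 1.35, limma adjusted p = 0.0637), without DEX2 and DEX3 together (0.89, limma adjusted p = 0.352), and without DEX2 (1.76), DEX3 (1.31), ctrl1 (1.48) or ctrl3 (1.53) alone. The CAF+DEX call was lost without CAFDEX2 (1.73), CAFDEX3 (1.60), ctrl1 (1.50) or ctrl3 (1.55), and CAF passed without DEX1 (1.43) or ctrl5 (1.92).

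CAFDEX6, the library lowest in miR-139-5p after both drugs, had 4.52 times as much of the 3p as of the 5p strand, the highest ratio of the 12 libraries. The ratio was 1.82 to 2.37 in CAF, 1.55 to 3.43 in DEX, 1.75 to 4.52 in CAF+DEX and 1.74 to 3.44 in Control. Recovered reads of miR-139-3p included fractions, while those of both members were whole in all 12 libraries. miR-224-3p was at 0 reads in all 12 libraries. The floor used here for a count of 0 is 3 reads, a one-sided limit that is lower than the upper end of the exact two-sided Poisson intervals given above. It corresponds to 51.9 FPKM in the deepest library, ctrl3, and 338 FPKM in the shallowest, DEX3, both far below miR-224-5p in the same library.

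Within libraries the 2 members kept no fixed proportion. miR-224-5p was the more abundant in every library, at 2.23 to 4.63 times miR-139-5p in CAF, 2.03 to 5.60 in DEX, 1.35 to 6.13 in CAF+DEX and 3.21 to 5.41 in Control. This ratio does not depend on the scaling of a library. Its log2 value averaged 1.85 ± 0.61 in CAF (SD, n = 3), 1.61 ± 0.77 in DEX, 1.40 ± 1.11 in CAF+DEX and 2.03 ± 0.38 in Control, and the ranges of all groups overlapped. CAFDEX2 and CAFDEX6 marked the ends, with 1.35 and 6.13.

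Likeness of pattern was measured as the root mean square (RMS) difference of log2(FPKM + 40) profiles over the 12 libraries, each centred on its own mean; a smaller value is a closer pattern. The closest to miR-139-5p was miR-874-3p (RMS difference 0.37), with log2 fold changes against Control of 1.44 in CAF, 1.33 in DEX and 1.14 in CAF+DEX. Its own 3p strand followed at 0.46, then miR-126a-5p of endothelium and platelets at 0.49, miR-455-3p at 0.51 and miR-147 at 0.51. The median difference from miR-139-5p over the other 365 microRNAs was 0.95. miR-147 had as few as 5 reads in a library, which limits its profile, whereas miR-126a-5p had at least 1046. miR-874-3p had at least 20 reads.

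The closest to miR-224-5p was miR-378a-5p (RMS difference 0.34), which had log2 fold changes of 1.14 in CAF, 1.07 in DEX and 1.21 in CAF+DEX. It was followed by miR-29b-3p, which targets collagen messenger RNAs, at 0.35, miR-134-5p at 0.35, miR-27b-3p at 0.36 and miR-382-5p at 0.38. miR-134-5p and miR-382-5p belong to the Dlk1-Dio3 imprinted cluster. The median difference from miR-224-5p was 0.77. No name stood in both lists of 5, and the members were not close to each other: their RMS difference was 0.65, which put miR-224-5p in place 39 for miR-139-5p and miR-139-5p in place 88 for miR-224-5p. The profiles share libraries and their depths, so closeness here is a description.

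**Figure D4:**
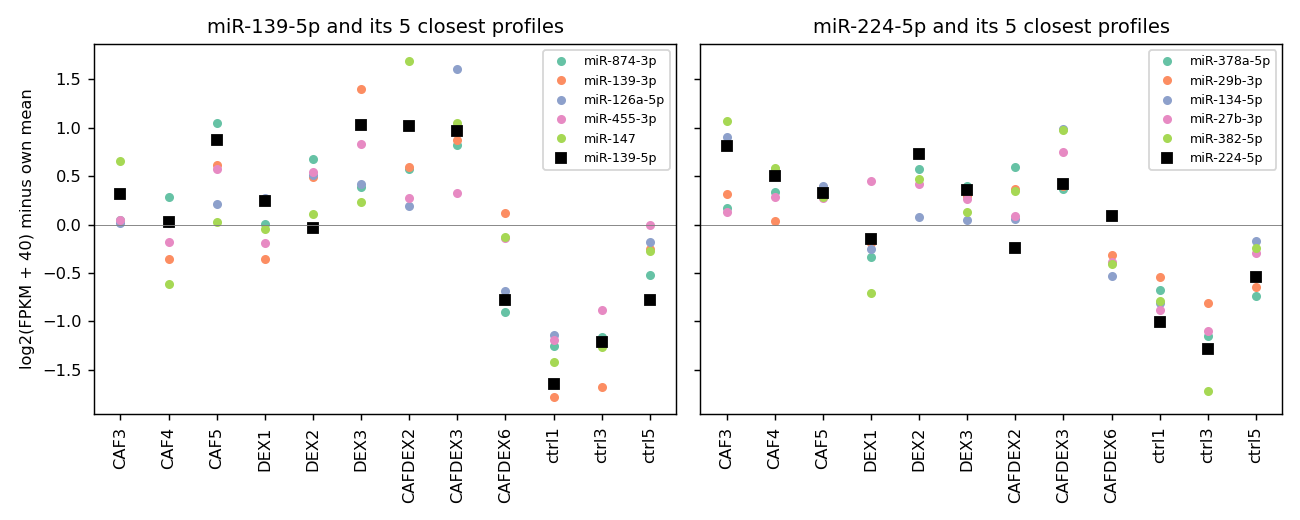
Centred log2(FPKM + 40) of miR-139-5p (left) and miR-224-5p (right, black squares in each) and of the 5 microRNAs with the closest profiles, over the 12 libraries by group; each point is 1 library. CAFDEX6 is low for miR-139-5p and for miR-874-3p, and the Control libraries lie below or close to 0 in both panels.

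MicroRNAs next to the members in Control level moved in either direction. In Control miR-139-5p stood in place 225 by mean level, beside miR-1843a-5p at 684 ± 467 FPKM (SD, n = 3) and miR-26b-3p at 673 ± 62.6. Their log2 fold changes were -0.31 and 0.40 in CAF, 0.14 and 0.42 in DEX and -0.55 and 0.55 in CAF+DEX. The next places were miR-133a-3p with log2 fold changes of 2.67 in CAF, 1.43 in DEX and 1.52 in CAF+DEX, and miR-6328 with -0.33, -0.72 and -2.07. miR-224-5p stood in place 147, beside miR-99b-3p at 2751 ± 331 FPKM, with log2 fold changes of 0.72, 0.29 and 0.27 in CAF, DEX and CAF+DEX, and miR-134-5p at 2704 ± 1063, with 1.38, 0.71 and 0.93. The next places were miR-671, with -0.17, -0.07 and -0.67, and miR-128-2-5p, with -0.54, -0.52 and -0.58.

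Other quantities moved with the drug groups beside the members. The haemolysis index was -7.11 to -6.40 in CAF, -6.47 to -5.13 in DEX and -6.44 to -5.67 in CAF+DEX, and -7.83 to -7.11 in Control. All its values are negative, so miR-451-5p was below miR-23a-3p in every library. The summed level of red-cell microRNAs, given below, did not follow the index. That sum was lower in every CAF library than in every Control library, and overlapped Control in DEX and CAF+DEX. The sum does not stand for each red-cell microRNA. The median log2 fold change of the 6 tested red-cell microRNAs was 0.21 in CAF, 1.71 in DEX and 0.36 in CAF+DEX. It was thus above 0 in each drug group and largest in DEX. The medians of all tested microRNAs were 0.19, 0.47 and 0.24 in the same order. Whether the index measures haemolysis in these libraries was not tested. With this index as a covariate the log2 difference of miR-139-5p from Control was 1.17 ± 0.56 in CAF, 0.56 ± 0.90 in DEX and 0.75 ± 0.77 in CAF+DEX (SE). For miR-224-5p it was 1.44 ± 0.40 in CAF, 1.14 ± 0.64 in DEX and 0.94 ± 0.55 in CAF+DEX. The index differs between the groups, so its own part and that of the drugs cannot be told apart.

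Over all 366 microRNAs limma called 6.83% higher in CAF, 11.5% in DEX and 6.56% in CAF+DEX. Calls in either direction numbered 29 in CAF, 44 in DEX and 40 in CAF+DEX. Of these 25 were higher in CAF, 42 in DEX and 24 in CAF+DEX, and the rest were lower. Lower calls were thus few in CAF and DEX and more common in CAF+DEX, which is the background to the lower counts below. Of 6 tested red-cell microRNAs, 0 were called higher in CAF, 3 in DEX and 1 in CAF+DEX by limma, and 1 was called lower in CAF and 1 in CAF+DEX. Their summed level was 4.65e+06 to 4.95e+06 FPKM in CAF, 5.37e+06 to 6.31e+06 in DEX and 5.08e+06 to 6.36e+06 in CAF+DEX, and 5.19e+06 to 6.20e+06 in Control. Of 6 liver microRNAs 3 were called higher in CAF, 4 in DEX and 2 in CAF+DEX. Their summed level was 3.77e+06 to 5.80e+06 FPKM in CAF, 4.16e+06 to 7.81e+06 in DEX and 4.06e+06 to 5.53e+06 in CAF+DEX, and 1.90e+06 to 3.18e+06 in Control, so every drug library was above every Control library. Of 7 tested brain microRNAs 1 was called higher in CAF, and 1 was called lower in DEX and 2 in CAF+DEX. The summed level of the 10 listed was 9.56e+05 to 1.43e+06 FPKM in CAF, 9.43e+05 to 1.26e+06 in DEX and 5.75e+05 to 1.20e+06 in CAF+DEX, and 1.62e+06 to 2.17e+06 in Control; 1 of the 10 was at 0 in all libraries. The brain sum was thus lower in every drug library than in every Control library, the opposite direction to the members. The median log2 fold change of the 7 tested was -0.34 in CAF, -0.37 in DEX and 0.14 in CAF+DEX. The sum therefore does not stand for each microRNA of the list.

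Of the other lists, 3 of 4 striated muscle microRNAs were called higher in CAF, 1 in DEX and 2 in CAF+DEX. Of 5 leukocyte microRNAs 2 were called higher in CAF, 0 in DEX and 3 in CAF+DEX. Of 5 platelet microRNAs 1 was called higher in each drug group, and of 5 endothelium and smooth muscle microRNAs 1 in CAF, 0 in DEX and 1 in CAF+DEX. miR-126a-3p stands in both of the last lists, so their counts are not separate. The shares over all microRNAs given above apply to these counts too. The part of these sources in the levels of miR-139-5p and miR-224-5p was not tested.

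**Figure D5:**
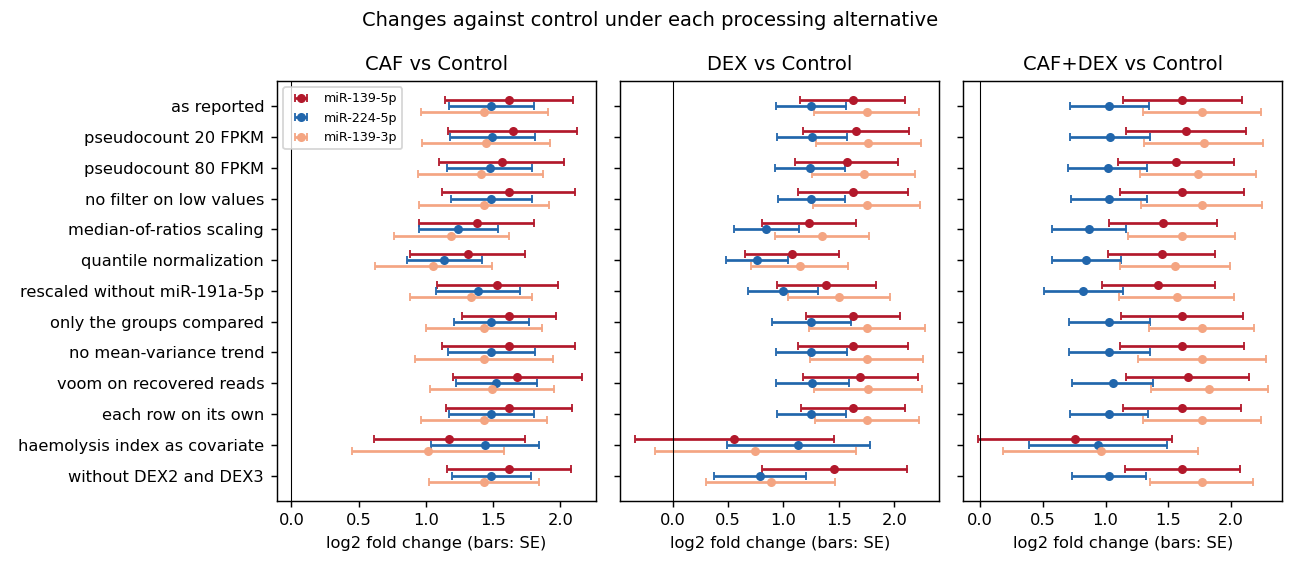
Log2 fold change against Control of miR-139-5p, miR-224-5p and miR-139-3p, as reported and under 12 processing alternatives, 1 panel per drug group; bars are SE and the vertical line is 0. All values are above 0, which for the members follows in part from their choice. The lowest value of each panel for miR-139-5p is the one with the haemolysis index as a covariate (1.17, 0.56 and 0.75).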

How the data were processed

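Small RNA of 200 uL of serum was sequenced with the QIAseq miRNA kit, per the labels' protocols. The deposited table gives FPKM per mature microRNA, made by the authors; FPKM times length summed to the same constant in each library. The submitters' processing notes list build rn6, STAR 2.7.10a, cutadapt 3.7, DESeq2 1.20.0, Subread 2.0.1 and featureCounts; their roles and any collapsing of unique molecular indices are not given in the sources used here. All FPKM above 0 were multiples of 0.01 of a read (tolerance 0.0001 of a step), which gave reads and library totals.

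The 836 rows were summed to 752 names. The 366 names that averaged 80 FPKM or more and were above 0 in 3 libraries or more were tested on log2(FPKM + 40) with limma 3.58.1 in R 4.3.3 (4 groups, mean-variance trend, 8 residual and 7.58 prior degrees of freedom, Benjamini-Hochberg over the 366, two-sided), and the script was tested on simulated data. No replicate pair agreed within sampling noise (chi-square per degree of freedom at least 76.9). Alternatives were other pseudocounts, filters, scalings, variance models, a haemolysis covariate, voom on recovered reads and left-out libraries. Members, lists and tests were chosen with earlier results of these data known. Named microRNAs were the members, their other strands, others called in all 3 comparisons, the 5 closest profiles, the nearest 2 above and below in Control level, and marker lists of liver, brain, red cell, platelet, endothelium and smooth muscle, striated muscle and leukocyte; miR-187-3p and miR-27b-3p were chosen after their values were seen. Sequences are from RefSeq (GRCr8). Tables and figures used pandas 2.3.3, numpy 2.4.6, matplotlib 3.10.9 and Python 3.11.15.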

Additional observations from a re-analysis of the deposited data

How the results depend on the processing

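No paired analysis was possible because the numbers in the column names are not those of the sample titles, and the columns give only the group of each library. The differences of both members from Control stayed above 0 under all 24 alternatives, which follows in part from their choice as higher than Control. Several alternatives, such as the fit without the mean-variance trend, change the SE and not the difference. With the haemolysis index as a covariate that of miR-139-5p was 1.17 in CAF, 0.56 in DEX and 0.75 in CAF+DEX (log2). With quantile normalization it was 1.08 for miR-139-5p in DEX, and 1.14 in CAF and 0.76 in DEX for miR-224-5p. Without DEX2 and DEX3, where the lone DEX library is assumed to vary like the other groups, miR-224-5p in DEX was 0.79. Leaving out 1 library at a time, miR-139-5p ranged from 1.38 to 1.84 in CAF, 1.32 to 1.85 in DEX and 1.30 to 2.20 in CAF+DEX, and miR-224-5p from 1.32 to 1.69, 1.04 to 1.48 and 0.86 to 1.23.

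Between drug groups no alternative made a member pass (lowest adjusted p 0.464 by limma), while small differences changed sign. CAF+DEX against CAF of miR-139-5p was 0.077 under scaling by median of ratios and 0.13 under quantile normalization. CAF+DEX against DEX was 0.23 and 0.37 with these, 0.034 without miR-191a-5p, 0.20 with the index and 0.15 without DEX2 and DEX3. DEX against CAF was -0.15, -0.24, -0.15, -0.62 and -0.16 in the same order. For miR-224-5p CAF+DEX against DEX was 0.023 with median-of-ratios scaling, 0.084 with quantile normalization and 0.24 without DEX2 and DEX3. With 1 library left out miR-139-5p ranged from -0.31 to 0.59 in CAF+DEX against CAF, -0.32 to 0.58 in CAF+DEX against DEX and -0.30 to 0.24 in DEX against CAF.

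The alternatives for miR-139-3p were chosen after seeing the data. Its DEX difference lost the call at 1.75 without the low-value filter, in a pairwise fit and without the mean-variance trend, at 1.35 with median-of-ratios scaling, 1.15 with quantile normalization, 1.50 without miR-191a-5p, 0.75 with the index and 0.89 without DEX2 and DEX3. Its CAF+DEX difference lost it at 1.77 without the filter or the trend and at 0.96 with the index. In CAF it passed at 1.43 in a pairwise fit and without DEX2 and DEX3, and at 1.49 with voom. With 1 library left out it ranged from 1.16 to 1.92 in CAF, 1.31 to 2.24 in DEX and 1.50 to 2.26 in CAF+DEX. The cause was not tested.

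The number of all microRNAs called in CAF against Control, 29, was 11 without the filter, 19 with median-of-ratios scaling, 18 with quantile normalization, 65 in a pairwise fit, 9 without the trend, 49 with voom and 5 with the index. For DEX, 44 became 26 without the filter, 28 without miR-191a-5p, 25 in a pairwise fit, 18 without the trend, 1 with the index and 18 without DEX2 and DEX3. For CAF+DEX, 40 became 13 without the filter, 17 without the trend and 1 with the index. CAF+DEX against DEX, 13, was 0 by limma without DEX2 and DEX3. DEX against CAF, 9, was 3 in a pairwise fit, and 0 by limma with the index and without DEX2 and DEX3. With 1 library left out the counts ran from 4 to 44 in CAF, 12 to 74 in DEX, 3 to 56 in CAF+DEX, 9 to 24 in CAF+DEX against DEX and 3 to 27 in DEX against CAF. The read counts limit the precision of miR-139-5p, which had 15 reads in DEX2.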
